A study of Sus scrofa with 6 samples.

Results

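The rule took every gene whose platform symbol begins with SOX, FOX, TBX, PAX, LHX, NKX, DLX, MSX, MEIS, PBX, EOMES, TEAD, TWIST or ID1 to ID4, or names a sine oculis homeobox gene (here SIX4), read from probe sets with exactly 1 symbol. It found 34 genes, carried by 51 probe sets, among the 6765 genes and 23999 probe sets of the pig array. Of these, 32 are transcription factors of 14 families. The other two, FOXRED1 and TWISTNB, share only their first letters with a family and are described apart. The forkhead (FOX) genes are the largest group with 10 members, followed by 4 ID genes, 3 SOX and 3 LHX genes, 2 MEIS and 2 TEAD genes, and 1 gene each of TBX, PAX, NKX, DLX, MSX, PBX and TWIST, and SIX4. EOMES was not analysed here. Each gene is given by the probe set with the highest mean over the 6 arrays.

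The study measured total RNA of 6 pig cell samples, each on 1 Affymetrix Pig Genome Array. Of the 4 induced pluripotent stem (iPS) cell lines, PS24 was labelled positive for the stage-specific embryonic antigens SSEA1, SSEA3 and SSEA4, and 30AC5 for SSEA1. The lines iPF4-2 and iPSCs-w were labelled positive for SSEA3 and SSEA4. PS24 and 30AC5 are called the SSEA1-labelled lines here, and iPF4-2 and iPSCs-w the SSEA3/SSEA4-only lines. The 2 somatic samples were PEF, a culture of embryo fibroblasts, and PAFSC, amniotic fluid stem cells. All were grown in DMEM with fetal bovine serum, and the iPS lines on mitotically inactive mouse embryo fibroblasts. The labels give no reprogramming factors, no age and no laboratory for a line, and nothing says that a sample stands for more than 1 culture, so the spread within a group is the spread between different lines. The study's question was how iPS lines of one laboratory compare with lines of others that differ in surface markers and plasticity.

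Developmental transcription factors bind DNA through a family domain, such as the forkhead, the homeodomain, the SOX box or the T-box, and switch cells between fates. ID proteins are helix-loop-helix proteins without a DNA-binding region. They hold back the basic helix-loop-helix factors that drive differentiation, and they are classic targets of BMP signalling. TWIST factors and SOX9 are known from mesenchyme and cartilage, FOXA factors from endoderm and epithelia, MEIS and PBX proteins as homeodomain partners of HOX factors, and TEAD proteins as the DNA-binding partners of the Hippo pathway coactivators YAP and TAZ.

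Each probe set is given on a log2 scale against a baseline of its own, so a value near 0 is not an absent transcript. Differences of one gene between arrays can be read, and levels of different genes cannot be ranked. In bulk RNA, fewer cells that express a gene and less RNA per cell cannot be told apart. On the 4 iPS arrays and in PEF, most of the family genes lay close to their baseline, as did most genes of the array. The median over the 34 genes was 0.10 on the PS24 array, 0.09 for 30AC5, -0.01 for iPF4-2 and -0.03 for iPSCs-w, with 0.00 for PEF and 1.60 for PAFSC.

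**Figure D1:**
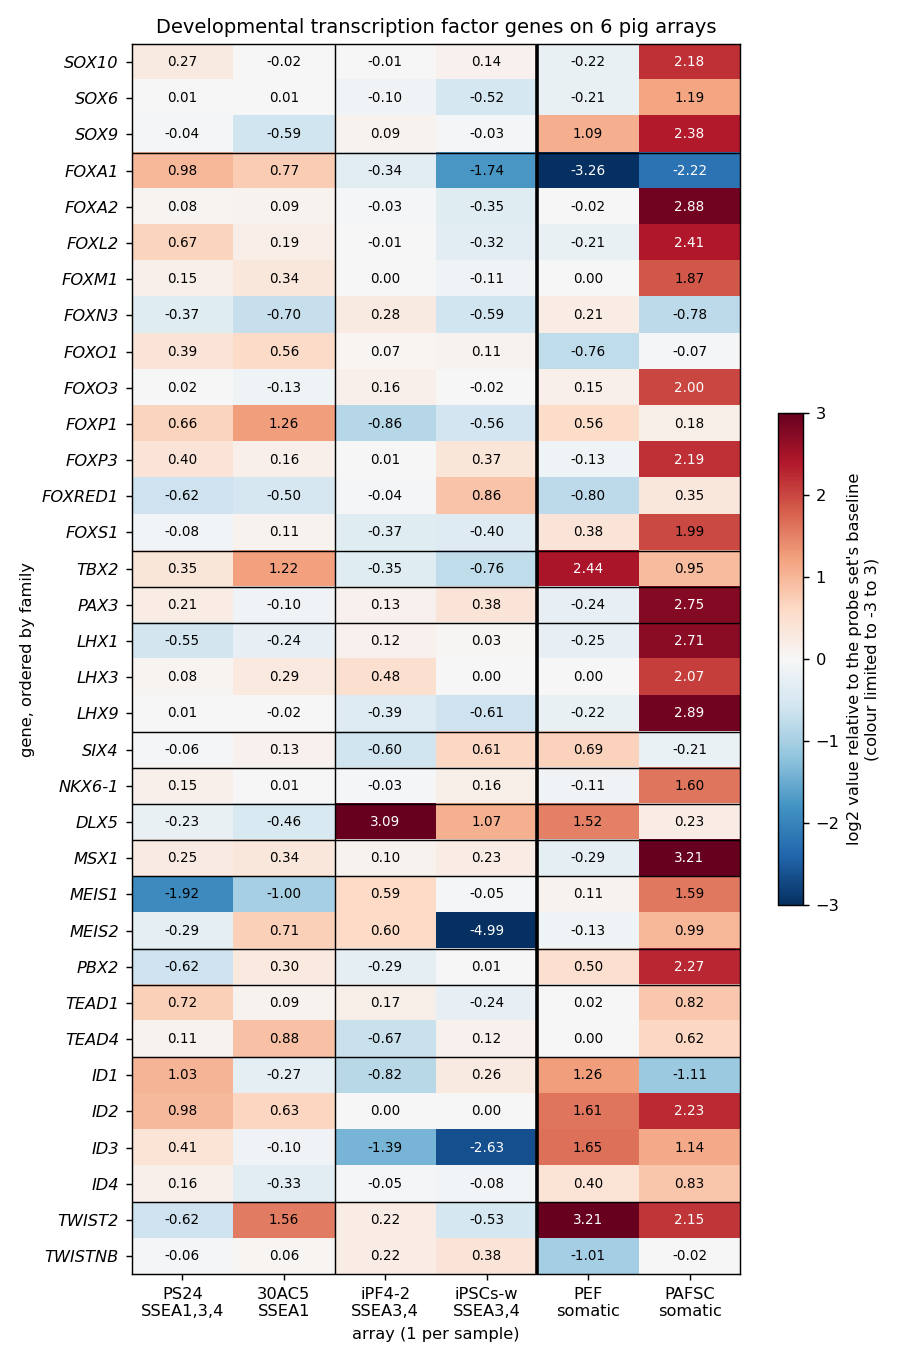
Values of the 34 genes (rows, ordered by family) on the 6 arrays (columns, iPS lines left of the somatic samples), as log2 values relative to each probe set's baseline. The PAFSC column holds the highest value of 21 genes (61.8%), where it did so for 47.2% of all genes and 50.1% of probe sets. The deepest value is MEIS2 in iPSCs-w at -4.99.

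The PAFSC array stood apart from the other 5 in ways that touch every comparison with the somatic samples. The SD over all probe sets was 2.01 in PAFSC, against 0.81 in PEF and between 0.61 and 0.73 in the iPS lines. The array also carries 64 reporter probe sets, which name no pig gene. Their median was 2.03 in PAFSC, and on the other 5 arrays it lay between -0.11 and 0.18. Of the 34 family genes, 22 (64.7%) stayed within 1 log2 unit of their baseline on the 5 other arrays, against 69.5% of all genes and 71.0% of probe sets. Of these 22, 15 lay above 1 in PAFSC. That was 44.1% of the family genes, against 32.6% of all genes and 78.1% of the reporter probe sets. Of 5 measured blood cell markers, 3 lay near the reporter values there, at 2.56 for PTPRC, 2.99 for CD3E and 2.27 for CD14, while AIF1 had -1.07 and SPI1 -0.08. The mean of the 5 lay between -0.31 and 0.72 in the iPS lines, against -0.43 in PEF and 1.33 in PAFSC. Whether these PAFSC values measure transcripts or the array was not tested. The counts and the differences with the somatic samples are therefore given also against PEF alone.

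**Figure D2:**
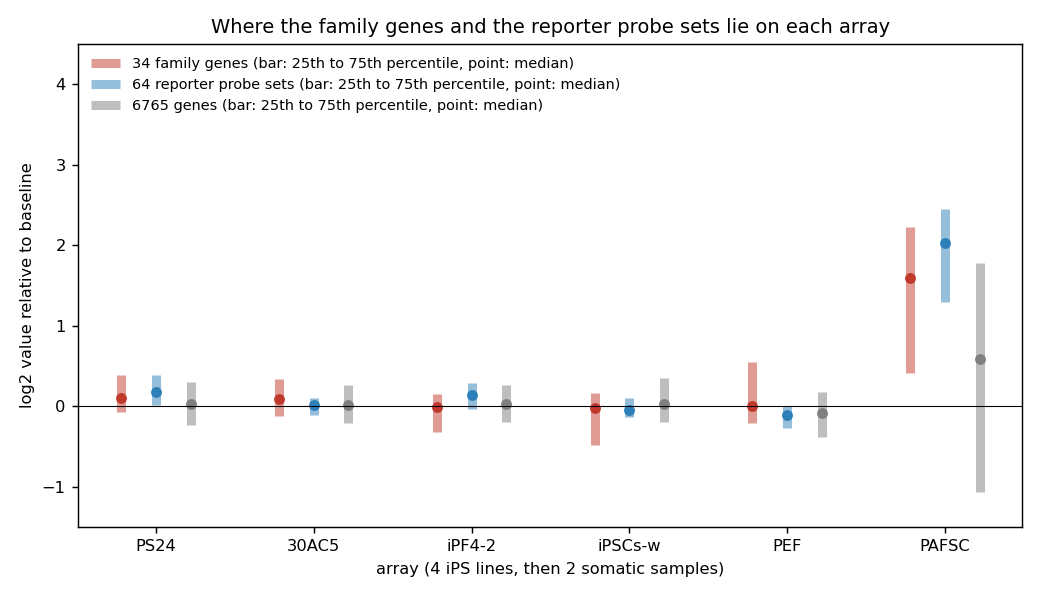
Median (points) and 25th to 75th percentile (bars) of the log2 values on each array for the 34 family genes, the 64 reporter probe sets and all 6765 genes. The 3 sets lie near 0 on the 4 iPS arrays and in PEF, and in PAFSC the medians are 1.60, 2.03 and 0.59.

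The labels were checked against markers. The mean of 14 fibroblast and mesenchyme genes lay between -1.01 and 0.51 in the iPS lines, against 3.59 in PEF and 2.73 in PAFSC. The 4 pluripotency genes measured, DNMT3B, DPPA5, POU5F1 and ZFP42, averaged -0.41 for PS24, -0.46 for 30AC5, 1.91 for iPF4-2 and 2.24 for iPSCs-w, against -0.54 in PEF and 0.70 in PAFSC. By this list the 2 SSEA1-labelled lines lay near PEF. The level of POU5F1, which encodes the core pluripotency factor OCT4, was 0.07 for PS24 and -0.07 for 30AC5, against 3.68 for iPF4-2 and 3.61 for iPSCs-w.

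The iPS lines against the somatic samples gave 0 family genes past an adjusted p of 0.05 (limma, Benjamini-Hochberg over all 23999 probe sets), where 0.025% of all probe sets and 0.0148% of genes passed. At an unadjusted p under 0.05, limma gave 7 of the 34 genes, or 20.6%, against 13.7% of all probe sets and 16.7% of genes. The 7 were SOX9, FOXA1, FOXS1, PBX2, ID2, ID3 and TWIST2. On simulated data the same test called 0% of probe sets that differed by 2 log2 units and 54% of those that differed by 4. The largest difference among the family genes was 2.66. In the simulation 50 probe sets per size were changed, and each probe set had the same spread on all arrays. PAFSC was wider than the other arrays, so these shares need not hold for the deposited data. With 0 genes past the test, the descriptions that follow are of values, beside the spread between lines.

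All 4 iPS lines lay below both somatic samples for 7 genes (20.6%), where 9.99% of all probe sets and 10.3% of genes did. These were SOX9, FOXS1, PBX2, ID2, ID3, ID4 and TWIST2. All 4 lay above both for FOXA1 and FOXO1 (5.88%), against 11.9% of probe sets and 15.6% of genes. The median difference of iPS lines minus somatic samples was -0.87 over the 34 genes, against -0.26 over all genes and -0.83 over the reporter probe sets. With PAFSC left out it was -0.03, against 0.17 over all genes. The iPS mean lay below the somatic mean for 30 genes (88.2%), against 60.9% of probe sets, 57% of genes and 96.9% of the reporter probe sets. It lay below PEF for 18 (52.9%), against 38.6% of probe sets, 36.4% of genes and 14.1% of the reporter probe sets. The low median thus rested on 1 array.

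Against PEF alone the fit sets 4 lines against 1 sample, which is assumed to vary like the lines, and it shares PEF and all 4 iPS arrays with the fit above. It called 0 family genes at an adjusted p under 0.05 (limma), where 0.567% of all probe sets and 0.665% of genes passed. At an unadjusted p under 0.05 it gave 7 genes (20.6%; SOX9, FOXA1, FOXO1, TBX2, ID2, TWIST2 and TWISTNB), against 12.3% of probe sets and 14.1% of genes. All 4 lines lay below PEF for 10 genes (29.4%), against 19.1% of probe sets and 18.8% of genes. They lay above PEF for 9 (26.5%), against 32.4% and 35.9%, and 50% of the reporter probe sets did so as well.

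**Figure D3:**
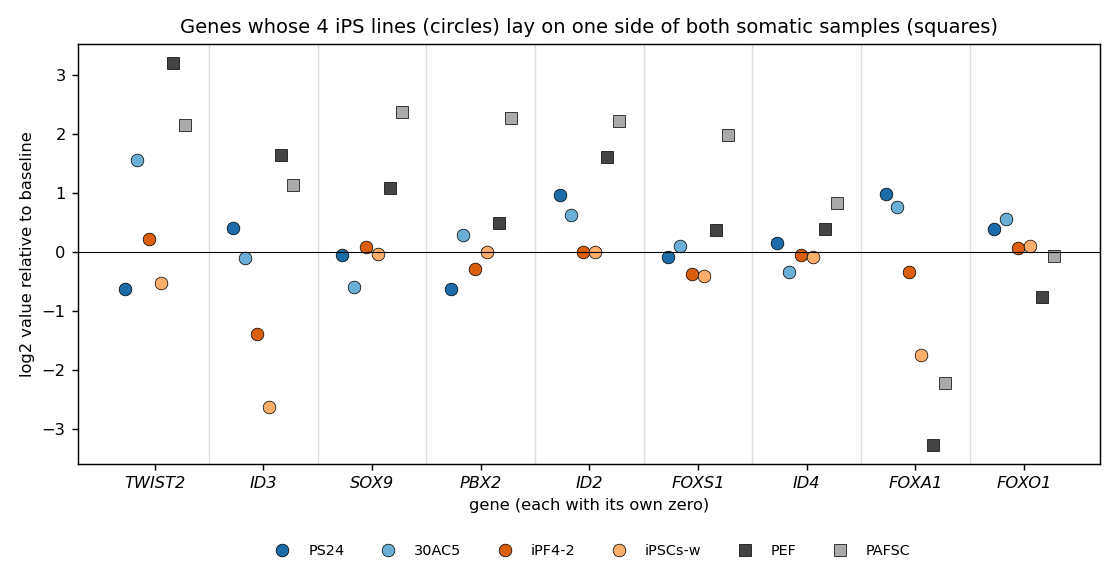
Log2 values relative to baseline of the 9 genes whose 4 iPS lines (circles) did not overlap with the somatic samples (squares). TWIST2, ID3, SOX9, PBX2, ID2, FOXS1 and ID4 are lower in every iPS line than in PEF and PAFSC, and FOXA1 and FOXO1 are higher.

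In the helix-loop-helix group, the iPS lines lay below PEF for all 4 ID genes and for TWIST2, and below both somatic samples for ID2, ID3, ID4 and TWIST2. The ID median of iPS minus somatic was -1.11, and it was -0.21 with each array's reporter median subtracted, where 2 of the 4 ID genes had a difference above 0. Against PEF the ID median was -1.21, with all 4 negative. After quantile normalization it was -1.03, again with all 4 negative. With array or reporter medians subtracted it was -1.29 or -1.38. Both subtractions shift every gene alike, here downward, so they could not change these signs.

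ID3 was at 0.41 in PS24, at -0.10 in 30AC5, at -1.39 in iPF4-2 and at -2.63 in iPSCs-w, against 1.65 in PEF and 1.14 in PAFSC. The difference was -2.32 ± 0.84 (SE; limma adjusted p = 0.334) against both somatic samples and -2.58 ± 1.16 (adjusted p = 0.463) against PEF. All iPS lines were lower, and the range among the 4 lines was wider than that difference.

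ID2, a partner of E proteins in many progenitor cells, had 0.98 in PS24, 0.63 in 30AC5 and 0.00 in both SSEA3/SSEA4-only lines, against 1.61 in PEF and 2.23 in PAFSC. The groups did not overlap, and the difference was -1.52 ± 0.52 (limma adjusted p = 0.317), or -1.21 ± 0.47 (adjusted p = 0.399) against PEF. After quantile normalization, and with reporter medians subtracted, the groups overlapped for ID2, ID3 and ID4. ID4 had a narrower range, with -0.33 to 0.16 in the iPS lines against 0.40 in PEF and 0.83 in PAFSC. Its difference was -0.69 ± 0.46 (limma adjusted p = 0.445), and -0.48 ± 0.29 against PEF (adjusted p = 0.598). ID1 was at 1.03 in PS24, at -0.27 in 30AC5, at -0.82 in iPF4-2 and at 0.26 in iPSCs-w, against 1.26 in PEF and -1.11 in PAFSC. ID1 was thus the one ID gene for which the somatic samples lay at opposite ends, with every iPS line between them.

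TWIST2, a repressor known from dermal and other mesenchyme, was at -0.62 in PS24, at 1.56 in 30AC5, at 0.22 in iPF4-2 and at -0.53 in iPSCs-w, against 3.21 in PEF and 2.15 in PAFSC. The difference was -2.52 ± 0.72 (limma adjusted p = 0.26), and -3.05 ± 0.88 against PEF (adjusted p = 0.273). The line 30AC5 lay closest to the somatic samples, and after quantile normalization or subtraction of array or reporter medians the groups overlapped.

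Partners of these helix-loop-helix genes were read from a separate list. Of 4 measured TWIST-related mesenchymal factors, 2 lay lower in all iPS lines than in both somatic samples, where 10.3% of all genes did. Of the 4, 0 passed the limma test. PRRX1, a homeobox factor of limb and craniofacial mesenchyme, was at -0.89 in PS24, at -0.62 in 30AC5, at -3.77 in iPF4-2 and at -4.99 in iPSCs-w, against 3.02 in PEF and 2.92 in PAFSC. Its difference of -5.53 ± 1.20 had a limma adjusted p of 0.184, against PEF it was -5.58 ± 1.81 (adjusted p = 0.321), and PRRX1 also stands in the fibroblast list. TCF21, a bHLH factor of visceral mesenchyme, ranged over -3.80 to -2.80 in the iPS lines, against -1.63 in PEF and -1.97 in PAFSC.

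Of 7 measured ID partners and BMP inputs, 0 passed the test. In all iPS lines 0 lay below both somatic samples, where 10.3% of all genes did, and 1 lay above both, where 15.6% did. That gene was SMAD1, a transducer of BMP signals, with -0.30, 0.58, 0.13 and 0.99 in PS24, 30AC5, iPF4-2 and iPSCs-w, against -0.99 in PEF and -4.95 in PAFSC. The somatic mean of SMAD1 was set largely by PAFSC, with a difference of 3.32 ± 0.99 over both samples (limma adjusted p = 0.277) and 1.34 ± 0.52 against PEF (adjusted p = 0.401). BMP4, a ligand of the pathway, overlapped between the groups, with -1.57 to 1.11 in the iPS lines against 0.55 in PEF and 2.40 in PAFSC.

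Among the 3 SOX genes, SOX9 was the one that stayed apart under every scaling tried. SOX9, a regulator of cartilage and of several progenitor pools, was at -0.04 in PS24, at -0.59 in 30AC5, at 0.09 in iPF4-2 and at -0.03 in iPSCs-w, against 1.09 in PEF and 2.38 in PAFSC. The difference was -1.88 ± 0.54 (limma adjusted p = 0.262) and -1.23 ± 0.35 against PEF (adjusted p = 0.265). All 4 lines lay within 0.7 log2 units of one another and below both somatic samples.

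SOX10, a factor of neural crest and glia, lay between -0.02 and 0.27 in the iPS lines, against -0.22 in PEF and 2.18 in PAFSC. SOX6, a SOX protein of cartilage and muscle that lacks an activation domain of its own, lay between -0.52 and 0.01 in the iPS lines, against -0.21 in PEF and 1.19 in PAFSC. For both genes PAFSC alone stood out, and PEF lay at or near the iPS values.

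The forkhead genes split by how they behaved in PAFSC. FOXA1, which opens closed chromatin in endoderm and other epithelia, was at 0.98 in PS24, at 0.77 in 30AC5, at -0.34 in iPF4-2 and at -1.74 in iPSCs-w, against -3.26 in PEF and -2.22 in PAFSC. Its difference of 2.66 ± 0.81 (limma adjusted p = 0.284) was the largest positive one of the 34 genes, and against PEF it was 3.18 ± 1.07 (adjusted p = 0.337). Every iPS line was higher than both somatic samples, with iPSCs-w close to PAFSC, and after quantile normalization the groups overlapped.

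FOXO1, a factor that AKT keeps out of the nucleus, was the other gene higher in all iPS lines, at 0.39 in PS24, at 0.56 in 30AC5, at 0.07 in iPF4-2 and at 0.11 in iPSCs-w, against -0.76 in PEF and -0.07 in PAFSC. The difference was 0.70 ± 0.47 (limma adjusted p = 0.449) and 1.05 ± 0.31 against PEF (adjusted p = 0.282). This pattern was not shared by the other FOXO1 probe set, which had -0.27 to 0.05 in the iPS lines, against -0.60 in PEF and 1.05 in PAFSC.

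FOXS1 was at -0.08 in PS24, at 0.11 in 30AC5, at -0.37 in iPF4-2 and at -0.40 in iPSCs-w, against 0.38 in PEF and 1.99 in PAFSC. The iPS lines lay below both samples, with a difference of -1.37 ± 0.57 (limma adjusted p = 0.355) and of -0.56 ± 0.31 against PEF (adjusted p = 0.562). FOXA2, FOXL2, FOXM1, FOXO3 and FOXP3 were also high in PAFSC, but their iPS lines did not all lie below PEF. These factors are known from endoderm, the ovary, mitosis, stress resistance and regulatory T cells, and all 5 lay within 0.7 log2 units of 0 on every iPS array and in PEF. In PAFSC they had between 1.87 and 2.88, and FOXS1 met the same limits.

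FOXM1 drives mitotic genes, and of 6 measured forkhead regulators and mitotic targets, 0 passed the test. In all iPS lines 1 lay below both somatic samples and 2 above both, where 10.3% and 15.6% of all genes did. CCNB1, the mitotic cyclin B1, was between -0.34 and 0.32 in the iPS lines, against -0.61 in PEF and -3.96 in PAFSC. In PAFSC it thus lay far below the other arrays, and FOXM1 lay above them there. Of the other mitotic genes in this list, AURKB was lowest in PAFSC, at -1.15, and PLK1 was highest there, at 0.20.

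The forkhead median of iPS minus somatic was -0.82, with 8 of 10 genes negative, and it was 0.07 with 4 of 10 negative when reporter medians were subtracted. Against PEF it was 0.03, with 5 of 10 negative. FOXN3, a repressor of the forkhead family, and FOXP1, a repressor with roles in lung, heart and lymphocytes, overlapped between iPS lines and somatic samples.

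TBX2, a T-box repressor of heart and limb development, was at 0.35 in PS24, at 1.22 in 30AC5, at -0.35 in iPF4-2 and at -0.76 in iPSCs-w, against 2.44 in PEF and 0.95 in PAFSC. The lines lay below PEF by 2.33 ± 0.76 (limma adjusted p = 0.325), and 30AC5 lay above PAFSC. Both other TBX2 probe sets had PEF near their baseline, at 0.03 and -0.19, and PAFSC at 2.42 and 2.36, so the high PEF value rests on 1 of 3 probe sets.

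PBX2, a homeodomain partner of MEIS and HOX proteins, was at -0.62 in PS24, at 0.30 in 30AC5, at -0.29 in iPF4-2 and at 0.01 in iPSCs-w, against 0.50 in PEF and 2.27 in PAFSC. The iPS lines lay below both samples, with a difference of -1.53 ± 0.61 (limma adjusted p = 0.345), and of -0.65 ± 0.41 against PEF (adjusted p = 0.607). The other PBX2 probe set had -1.45 in PAFSC, which turned its difference to 0.55, and against PEF alone that difference was -0.42.

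The remaining homeobox and paired-box genes, PAX3, LHX1, LHX3, LHX9, NKX6-1 and MSX1, lay near their baseline outside PAFSC on the probe sets of highest mean. These genes pattern the neural crest, head, pituitary, gonad, pancreas and face. They lay between -0.61 and 0.48 in the iPS lines, against -0.29 to 0.00 in PEF and 1.60 to 3.21 in PAFSC. The other MSX1 probe set had -0.41 to 0.14 in the iPS lines, against 0.74 in PEF and 1.92 in PAFSC, so all 4 lines lay below both somatic samples there. Its difference was -1.40 against both and -0.81 against PEF (limma adjusted p = 0.335 and 0.386), whereas the probe set of highest mean gave 0.52 against PEF. The other PAX3 probe set also had all 4 lines below both, at -0.40 to -0.13, against -0.03 in PEF and 2.45 in PAFSC. Over the 14 families, the median of iPS minus somatic was negative in 14, in 8 with reporter medians subtracted, and in 7 with PAFSC left out.

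LIM homeodomain proteins work through shared cofactors, of which 4 were measured. SSBP2, which stabilises the cofactor LDB1, was at -0.36 in PS24, at -0.36 in 30AC5, at -0.33 in iPF4-2 and at -1.28 in iPSCs-w, against 1.69 in PEF and 2.20 in PAFSC. This was 1 of 4 that lay below both somatic samples in all iPS lines, where 10.3% of all genes did. SSBP2 lay below them by 2.53 ± 0.51 (limma adjusted p = 0.167) and below PEF by 2.28 ± 0.46. The 3 LHX genes lay near their baseline in PEF. SIX4, a homeobox factor of muscle, overlapped between the groups, with -0.60 to 0.61 in the iPS lines against 0.69 in PEF and -0.21 in PAFSC.

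TEAD1 and TEAD4 overlapped between the groups on the probe sets of highest mean. TEAD1 had between -0.24 and 0.72 in the iPS lines, against 0.02 in PEF and 0.82 in PAFSC. TEAD4, which in the mouse is needed for trophectoderm, had between -0.67 and 0.88, against 0.00 in PEF and 0.62 in PAFSC. On these probe sets the iPS lines lay on either side of PEF for both genes. The other TEAD1 probe set had -1.23 to 0.00 in the iPS lines, against 0.09 in PEF and 0.63 in PAFSC. All 4 lines lay below both somatic samples there, with a difference of -0.91 (limma adjusted p = 0.434) and of -0.64 against PEF (adjusted p = 0.7).

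The genes around the TEAD proteins spanned wider ranges. Of 7 measured coactivators, Hippo kinases and targets, 1 lay below both somatic samples in all iPS lines, where 10.3% of all genes did. Of the 7, 0 passed the limma test. Against PEF alone, 5 lay lower in all iPS lines, where 18.8% of genes did, and 1 lay higher, where 35.9% did. VGLL3, a TEAD cofactor, was at 2.16 in PS24, at 0.82 in 30AC5, at -1.21 in iPF4-2 and at -1.53 in iPSCs-w, against 4.40 in PEF and -0.64 in PAFSC. CYR61, a matricellular target of YAP and TEAD, had 0.17, 0.98, -2.11 and -1.61 in the same order of lines, against 2.84 in PEF and -1.28 in PAFSC. Both were high in PEF, intermediate in the SSEA1-labelled lines and low in the others, and PAFSC sat with the low arrays. ANKRD1, another YAP target, was -0.45 to 0.49 in the iPS lines, against 1.89 in PEF and 1.71 in PAFSC. The differences against PEF were -4.34 ± 1.48 for VGLL3, -3.49 ± 1.24 for CYR61 and -1.93 ± 0.43 for ANKRD1, with limma adjusted p values of 0.343, 0.363 and 0.175. The mean of the fibroblast and mesenchyme genes was 3.59 in PEF and 2.73 in PAFSC. In PS24, 30AC5, iPF4-2 and iPSCs-w it was 0.08, -0.08, 0.51 and -1.01. The part of these markers in the values of the TEAD-related genes was not tested.

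Within the iPS lines, the SSEA1-labelled lines against the SSEA3/SSEA4-only lines gave 0 family genes past an adjusted p of 0.05 (limma on the 4 iPS arrays), where 0.0167% of all probe sets and 0.0148% of genes passed. At an unadjusted p under 0.05, limma gave 7 genes (20.6%), against 11.1% of probe sets and of genes. These were FOXA1, FOXP1, TBX2, DLX5, MEIS1, ID2 and ID3. Simulated differences of 2 log2 units were called in 0% and those of 4 in 46%. Both SSEA1-labelled lines lay above both others for 13 genes (38.2%), against 21% of probe sets and 19.8% of genes. They lay below for 6 (17.6%), against 20.2% and 22.2%.

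The forkhead family held 7 of the 13 higher genes, namely FOXA1, FOXA2, FOXL2, FOXM1, FOXO1, FOXP1 and FOXS1. The other 6 were SOX6, TBX2, LHX9, MSX1, ID2 and ID3. The median difference over the 34 genes was 0.21, against -0.02 over all genes and 0.07 over the reporter probe sets, 18 of which also lay above in both SSEA1-labelled lines. For FOXA2, FOXM1 and MSX1 the difference was at most 0.30. The second probe sets of FOXA2, FOXO1 and MSX1 gave -0.07, -0.01 and -0.12 and did not separate the classes.

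FOXA1 stood at 0.88 on average in the SSEA1-labelled lines, against -1.04 in the SSEA3/SSEA4-only lines, from the values given above. The difference of 1.92 ± 0.51 had a limma adjusted p of 0.304. PS24 and 30AC5 were close together, and iPF4-2 and iPSCs-w were 1.40 apart.

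FOXP1 was at 0.66 in PS24 and at 1.26 in 30AC5, while iPF4-2 was at -0.86 and iPSCs-w at -0.56. The difference of 1.68 ± 0.32 had the smallest adjusted p of the family genes in this comparison (limma, 0.193). PEF at 0.56 and PAFSC at 0.18 lay between the classes.

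ID3 averaged 0.15 in the SSEA1-labelled lines, against -2.01 in the others, with a difference of 2.16 ± 0.49 (limma adjusted p = 0.244). ID2 averaged 0.80, against 0.00, with a difference of 0.80 ± 0.27 (adjusted p = 0.386). TBX2 averaged 0.79, against -0.56, with a difference of 1.34 ± 0.39 (adjusted p = 0.331) on 1 of its 3 probe sets. The other two gave 0.17 and 0.02, and the lines of the classes overlapped on both. For ID2 and ID3 the order was the same when PAFSC is set aside, with both SSEA1-labelled lines above the SSEA3/SSEA4-only lines and PEF above all 4.

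DLX5 and MEIS1 ran the other way. DLX5, a homeobox factor of bone and of craniofacial ectoderm, was at -0.23 in PS24 and at -0.46 in 30AC5, while iPF4-2 was at 3.09 and iPSCs-w at 1.07. PEF had 1.52 and PAFSC 0.23, so the highest DLX5 value of the 6 arrays was that of an iPS line. The difference between the classes was -2.43 ± 0.69 (limma adjusted p = 0.325).

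MEIS1, a homeodomain partner of HOX and PBX proteins in blood and limb progenitors, was at -1.92 in PS24 and at -1.003 in 30AC5, while iPF4-2 was at 0.59 and iPSCs-w at -0.05. PEF had 0.11 and PAFSC 1.59. The difference was -1.73 ± 0.43 (limma adjusted p = 0.28). The other MEIS1 probe set gave the same order, with -3.01 and -1.07 in PS24 and 30AC5, against 0.94 and -0.02 in iPF4-2 and iPSCs-w, and a difference of -2.50. LHX1, SOX9, FOXRED1 and TWISTNB were the other genes lower in both SSEA1-labelled lines, by 0.30 to 0.97, and the second probe sets of FOXRED1 and TWISTNB did not separate the classes.

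**Figure D4:**
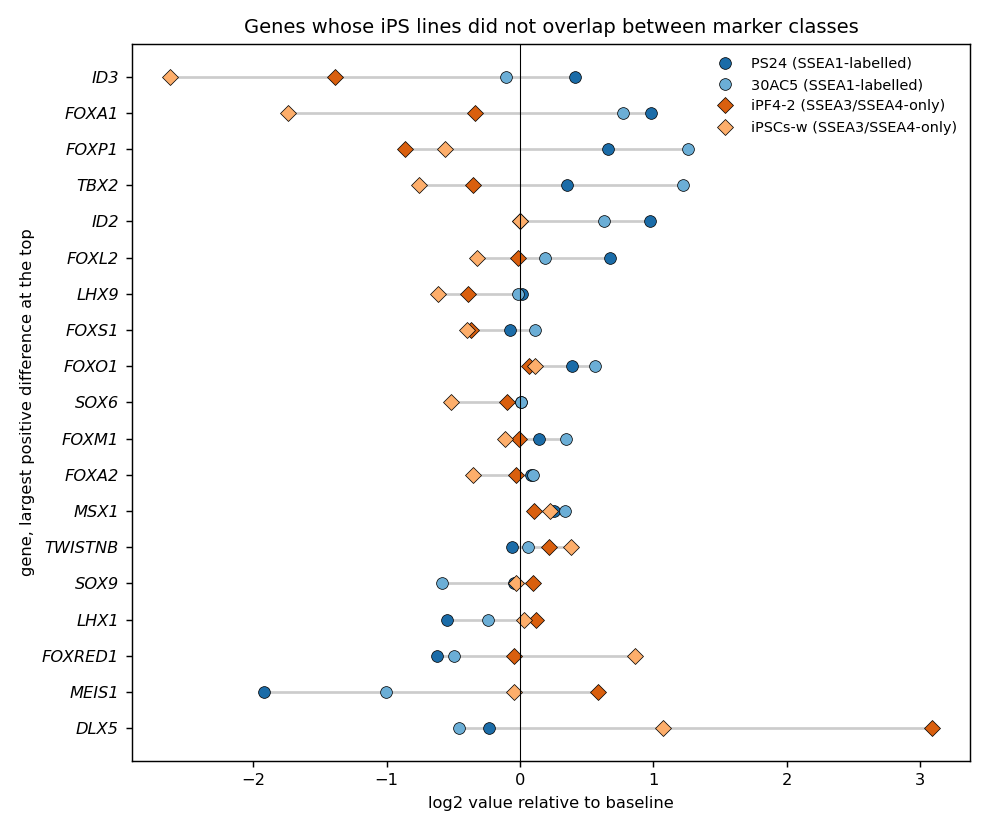
Log2 values relative to baseline of the 19 genes whose SSEA1-labelled lines (circles) and SSEA3/SSEA4-only lines (diamonds) did not overlap, ordered by the difference between classes. Each gene is shown by the probe set of highest mean, and FOXA1, FOXP1, TBX2 and ID3 lie higher in PS24 and 30AC5, and DLX5 and MEIS1 lie higher in iPF4-2 and iPSCs-w.

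Other measures separated the same 2 classes. Of 9 simple epithelium genes, 7 lay lower in both SSEA1-labelled lines, where 22.2% of all genes did. The list means were -0.50 for PS24 and 0.51 for 30AC5, against 1.82 for iPF4-2 and 2.42 for iPSCs-w. All 4 measured pluripotency genes lay lower as well. Among the partner genes, POU5F1, which pairs with SOX factors, differed by -3.65 ± 0.25 (limma adjusted p = 0.0514). PRRX1 differed by 3.62 ± 0.46 (adjusted p = 0.102), VGLL3 by 2.86 ± 0.50 (adjusted p = 0.157) and CYR61 by 2.44 ± 0.39 (adjusted p = 0.139). LMO2, a LIM-only protein of blood progenitors, was at 1.75 in PS24 and at 1.42 in 30AC5, while iPF4-2 was at -0.85 and iPSCs-w at 0.08, with an adjusted p of 0.204. SGK1, a kinase that phosphorylates FOXO proteins, was high in 30AC5 alone among the iPS lines, at 2.53. It had -0.05 in PS24, -0.26 in iPF4-2 and 0.05 in iPSCs-w, against 1.86 in PEF and 2.52 in PAFSC. FOXA1 thus lay higher in the lines where most epithelial and all pluripotency markers measured lay lower. The part of these markers in the family genes' values was not tested.

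The PS24 and PAFSC arrays also differed from the others in their RNA controls. The difference between 5' and 3' control probe sets of actin, EF1A and GAPDH averaged -1.90 in PS24, between -0.03 and 0.19 in the other 3 iPS lines, 0.04 in PEF and 1.90 in PAFSC, on the same relative scale. For actin, EF1A and GAPDH in turn it was -2.03, -1.98 and -1.70 in PS24, and 2.72, -0.70 and 3.66 in PAFSC. The part of these differences in the values of PS24 and PAFSC was not tested. With PS24 left out, which sets 30AC5 alone against the other class, the differences of FOXA1, FOXP1, TBX2, DLX5, MEIS1, ID2 and ID3 had the same signs.

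The SD over the 4 iPS lines, which takes in any difference between the classes, was above 1 for 7 genes (20.6%), against 8.01% of all genes. These were MEIS2, DLX5, ID3, FOXA1, MEIS1, TWIST2 and FOXP1. The median SD was 0.35 over the family genes and 0.33 over all genes.

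MEIS2 had the largest SD over the iPS lines of the 34 genes, 2.70. It had -4.99 in iPSCs-w, and on the other 5 arrays it lay between -0.29 and 0.99: -0.29 in PS24, 0.71 in 30AC5 and 0.60 in iPF4-2, against -0.13 in PEF and 0.99 in PAFSC. The other MEIS2 probe set was also lowest in iPSCs-w, at -3.17, and between -0.50 and 0.39 elsewhere. The low value was thus seen by both probe sets of the gene and on 1 array. It also set the MEIS2 difference between the classes, which was 2.40 ± 1.81 (limma adjusted p = 0.732) and ran between -0.39 and 5.20 when single lines were left out.

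The pair iPF4-2 and iPSCs-w was at least 1 log2 unit apart for 6 genes (17.6%), against 10.3% of probe sets and 10.4% of genes. These were FOXA1, SIX4, DLX5, MEIS2, ID1 and ID3. DLX5, FOXA1, MEIS2 and ID3 were higher in iPF4-2, and SIX4 and ID1 in iPSCs-w. PS24 and 30AC5 were that far apart for ID1 and TWIST2 (5.88%), against 11.1% of probe sets and 10.8% of genes. ID1 was higher in PS24 and TWIST2 in 30AC5. These pairs have 1 array a side and no test.

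PEF was set against PAFSC with no test, since each is 1 array. PEF lay at least 2 log2 units below PAFSC for 9 genes (26.5%), against 20.1% of probe sets, 20.8% of genes and 57.8% of the reporter probe sets. The genes were SOX10, FOXA2, FOXL2, FOXP3, PAX3, LHX1, LHX3, LHX9 and MSX1, all with PEF between -0.29 and 0.00. MSX1, a homeobox factor of tooth and palate, had -0.29 in PEF, against 3.21 in PAFSC, and the highest reporter probe set had 3.21 in PAFSC as well. The other MSX1 probe set had 0.74 in PEF, against 1.92 in PAFSC, and was less than 2 log2 units apart. LHX9 had -0.22 in PEF against 2.89 in PAFSC, PAX3 -0.24 in PEF against 2.75 in PAFSC, and LHX1 -0.25 in PEF against 2.71 in PAFSC. All 9 PAFSC values fell within the range of the reporter probe sets on that array, 0.28 to 3.21.

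ID1 was the one gene with PEF at least 2 log2 units higher, at 1.26 against -1.11 in PAFSC (2.94%, against 16.3% of probe sets and 17.7% of genes). In PEF the 75th percentile of the 34 genes was 0.55, against 0.17 over all genes. TWIST2 had 3.21, TBX2 2.44, ID3 1.65, ID2 1.61, DLX5 1.52, ID1 1.26 and SOX9 1.09 in PEF. The rest of the 34 genes had at most 0.69 there, and FOXA1 was the lowest at -3.26.

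The iPS lines against PAFSC alone gave 18 family genes at an adjusted p under 0.05 (52.9%; limma, 4 lines against 1 sample), against 59.6% of all probe sets, 60.3% of genes and 78.1% of the reporter probe sets. The share of family genes lay below that of all genes, and the reporter probe sets, which name no gene, passed most often. Those calls are therefore not given gene by gene.

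For 16 of the 34 genes the array has more than 1 probe set, and the other 18 rest on 1. The sign of the iPS minus somatic difference was the same for all probe sets in 14 of the 16 genes, against 10 of 16 for iPS minus PEF and 9 of 16 for the marker classes. The median of the largest gap between probe sets on one array was 0.95, and 0.74 without PAFSC. Gaps were widest for TWISTNB at 3.76 and PBX2 at 3.72, both in PAFSC, then for TBX2 at 2.64 in PEF and TEAD1 at 1.95 in PS24. Both MEIS1 probe sets put the 4 lines in the same order in spite of a gap of 1.08, and both MEIS2 probe sets were lowest in iPSCs-w in spite of a gap of 1.82.

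**Figure D5:**
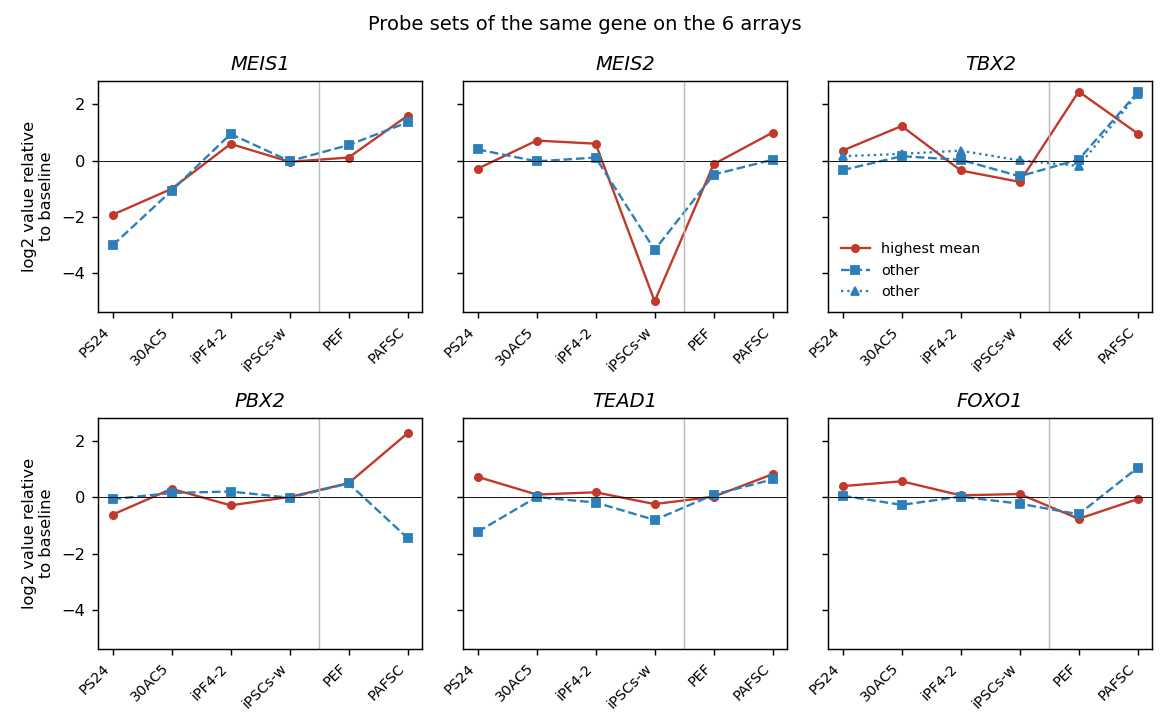
Log2 values relative to baseline of all probe sets of 6 genes on the 6 arrays, with the probe set of highest mean as circles and the others as squares or triangles. Both MEIS1 probe sets are lowest in PS24 and both MEIS2 probe sets in iPSCs-w, whereas PBX2 probe sets part in PAFSC and TBX2 probe sets part in PEF.

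On the probe sets of highest mean, the genes with the smallest SD over all 6 arrays were ID4, TEAD1, FOXO1, FOXN3, TWISTNB and SIX4. FOXN3 was at -0.37 in PS24, at -0.70 in 30AC5, at 0.28 in iPF4-2 and at -0.59 in iPSCs-w, against 0.21 in PEF and -0.78 in PAFSC. These probe sets spread over at most 1.39 log2 units, and for FOXN3, SIX4 and TEAD1 the iPS lines lay on both sides of a somatic sample. The other probe sets of TWISTNB, TEAD1, FOXO1 and SIX4 spread over 4.51, 1.86, 1.65 and 1.56 log2 units, so this order depends on the probe set.

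The 2 genes that match the rule by their first letters alone are not developmental regulators. FOXRED1, an assembly factor of mitochondrial complex I, was at -0.62 in PS24, at -0.50 in 30AC5, at -0.04 in iPF4-2 and at 0.86 in iPSCs-w, against -0.80 in PEF and 0.35 in PAFSC. TWISTNB, a subunit of RNA polymerase I, had between -0.06 and 0.38 in the iPS lines, against -1.01 in PEF and -0.02 in PAFSC, and lay above PEF by 1.16 ± 0.29 (limma adjusted p = 0.216). The other TWISTNB probe set had -0.32 to 0.74 in the iPS lines, against -0.65 in PEF and -3.77 in PAFSC. All 4 lines lay above both somatic samples there, with a difference of 2.36 (adjusted p = 0.324) and of 0.80 against PEF (adjusted p = 0.558). Without them, the median of iPS minus somatic over the 32 family factors was -0.93, and that of iPS minus PEF was -0.09.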

How the data were processed

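Biotin-labelled RNA of 6 samples was hybridised to 1 pig array each, per the labels' protocols. The authors deposited log2 values per probe set, relative to a baseline that is not stated. The log base was taken as 2. How they summarized and normalized the arrays is not given in the sources used here. Of 24123 probe sets, 124 array controls were left out, and 64 reporter probe sets were kept. The platform annotation gave 1 symbol to 10069 probe sets, several to 198 and none to 13732. By gene ID, 32 of the 34 genes were found in the RefSeq gene table.

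Tests used limma 3.58.1 (lmFit, eBayes, two-sided, Benjamini-Hochberg over 23999 probe sets, threshold 0.05) in R 4.3.3. iPS against somatic had 4 residual degrees of freedom. The marker classes were fitted on the 4 iPS lines alone, with 2. That choice kept the gap between PEF and PAFSC out of the spread. With 1 array per sample, p-values measure only the spread between these samples, and precision is limited by the number of arrays. On simulated data, with 50 changed probe sets per size, the tests were checked. The members, the lists of partners and markers, and the tests were chosen with earlier results of these data known. Full values were given by rule to the genes with the largest differences without overlap, the widest or narrowest spread, and the widest range in each family. For partner genes it was the 6 largest differences per contrast. TCF21 was named after its values were seen. Alternatives were other scalings, a filter on low means, a robust eBayes (statmod 1.5.0) or one with a trend, averaged probe sets per gene, all 6 arrays in 3 classes, and leaving out each sample. Subtracting reporter medians was added after seeing the data. The filter and the choice of probe set use means of relative values.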

Additional observations from a re-analysis of the deposited data

How the results depend on the processing

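No paired analysis was possible because the samples are different lines and cultures that share no replicate numbers in the labels. The cause of the shifts below was not tested. In iPS against somatic, limma called 6 probe sets, against 1 with array medians subtracted, 0 with reporter medians subtracted, 35 with the lowest 40% by mean left out and 2 with an eBayes trend. Leaving out 1 sample gave 0 to 14303 (0 without PS24, 30AC5 or iPSCs-w, 1 without iPF4-2, 136 without PAFSC, 14303 without PEF), and 0 to 18 family genes (18 without PEF). The family median of -0.87 was -0.57 with array medians, 0.024 with reporter medians and -0.41 with quantile normalization, and -1.84 to -0.032 with a sample left out. Genes below both somatic samples, 7 here, numbered 1 with reporter medians (SOX9), 4 with quantile normalization and 7 to 23 with a sample left out. Genes above both, 2 here, numbered 1 without the lowest 40%, 1 with quantile normalization, 3 with array or reporter medians subtracted, and 2 to 9 with a sample left out. Families with a negative median, 14 here, numbered 8 with reporter medians and 7 without PAFSC. Over all probe sets the median of iPS minus somatic was -0.34 as deposited, -0.04 with quantile normalization or array medians and 0.55 with reporter medians.

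In the marker classes, limma called 4 probe sets, against 2 with array medians, 0 with reporter medians, 58 without the lowest 40%, 8 with a trend, 2 with robust eBayes, 48 with the mean of probe sets, 0 over all 6 arrays, 90 with quantile normalization and 0 with any line left out. The median of 0.21 was 0.28 without the lowest 40%, 0.35 with quantile normalization and 0.15 to 0.21 with a line left out. Genes below in the SSEA1-labelled lines, 6 here, numbered 3 without the lowest 40%, which kept 27 of the 34 genes, and 8 to 11 with a line left out, and genes above 16 to 18, where 13 is the count on all 4. For PEF minus PAFSC the median of -1.21 was -0.46 with array medians, 0.92 with reporter medians and -0.21 with quantile normalization. Genes at least 2 lower, 9 here, numbered 5, 0 and 3, and genes at least 2 higher, 1 here, numbered 3, 8 and 0.

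The iPS minus somatic difference changed sign with array medians subtracted for DLX5 (0.29), FOXN3 (0.24), FOXP1 (0.051), ID1 (0.27), SIX4 (0.077), TEAD1 (0.068) and TEAD4 (0.10). With quantile normalization it did so for DLX5 (0.19) and TEAD1 (0.12). With reporter medians subtracted it did so for DLX5 (0.88), FOXM1 (0.045), FOXN3 (0.83), FOXP1 (0.64), FOXP3 (0.094), ID1 (0.86), ID4 (0.20), LHX3 (0.071), NKX6-1 (0.21), SIX4 (0.67), SOX10 (0.0031), SOX6 (0.25), TEAD1 (0.66) and TEAD4 (0.69). The class difference changed sign for NKX6-1 with array medians (-0.0023) and reporter medians (-0.039), for SIX4 with reporter medians (-0.015), for FOXO3 with the mean of probe sets (0.20) and for PBX2 with quantile normalization (0.0080).

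With 1 sample left out in turn, the iPS minus somatic difference crossed 0 for DLX5 (-0.75 to 0.64), FOXL2 (-2.28 to 0.34), FOXM1 (-1.78 to 0.089), FOXN3 (-0.56 to 0.44), FOXP1 (-0.63 to 0.080), FOXP3 (-1.96 to 0.36), FOXRED1 (-0.42 to 0.72), ID1 (-1.21 to 1.16), LHX1 (-2.87 to 0.088), LHX3 (-1.85 to 0.21), MSX1 (-2.98 to 0.52), NKX6-1 (-1.53 to 0.18), PAX3 (-2.59 to 0.40), SIX4 (-0.67 to 0.23), SOX10 (-2.09 to 0.31), SOX6 (-1.34 to 0.061), TEAD1 (-0.63 to 0.17) and TEAD4 (-0.51 to 0.11). The class difference crossed 0 for FOXN3 (-0.82 to 0.050), FOXP3 (-0.088 to 0.27), ID4 (-0.27 to 0.22), LHX3 (-0.30 to 0.19), MEIS2 (-0.39 to 5.20), NKX6-1 (-0.088 to 0.11), PBX2 (-0.48 to 0.44), SIX4 (-0.57 to 0.64), SOX10 (-0.084 to 0.20) and TWIST2 (-0.47 to 1.72).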
